A study of Homo sapiens with 2 samples.

Results

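The genes described here are the 4 kinases that phosphorylate eIF2 alpha (EIF2AK1, EIF2AK2, EIF2AK3 and EIF2AK4), 4 proteins that pass stress signals to them or restrain them (GCN1, IMPACT, DELE1 and OMA1), the constitutive phosphatase subunit PPP1R15B and the substrate EIF2S1. They were chosen by name, with earlier results of these data known. All 10 were found by Entrez gene number among 16021 rows of the expression table. RNA sequencing was done on HGC-27 cells, a human gastric carcinoma line, that had received, by lentivirus, an shRNA against the RNA helicase DDX5 or a non-targeting shRNA. Both cultures were put under puromycin selection from 48 h onward and harvested 1 week later. Each condition was represented by 1 library, so no p-value or standard error across cultures could be given, and the spread between cultures was not measured. Whether more than 1 shRNA sequence or more than 1 clone was used is not given in the labels.

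When eIF2 alpha is phosphorylated, general translation initiation slows, while the mRNA of the transcription factor ATF4 is translated more because of short upstream reading frames. The kinases divide the sensing of stress among themselves. HRI (EIF2AK1) responds to heme shortage and to mitochondrial stress, PKR (EIF2AK2) to double-stranded RNA, PERK (EIF2AK3) to unfolded protein in the endoplasmic reticulum and GCN2 (EIF2AK4) to uncharged tRNA and stalled ribosomes. These proteins are controlled largely by binding, cleavage and phosphorylation. The table holds mRNA levels, and neither kinase activity nor eIF2 alpha phosphorylation was measured.

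The DDX5 mRNA stood at 50.78 FPKM (fragments scaled to transcript length and to library depth) in the DDX5 shRNA library, against 170.5 FPKM in the non-targeting library. Ratios below are log2 ratios of FPKM + 1, DDX5 shRNA over non-targeting shRNA, and "2-fold" means a ratio of at least 1 or at most -1 on that scale. The 11413 genes whose mean of both libraries reached 1 FPKM form the background, with a median ratio of 0.024 and an interquartile range of -0.28 to 0.35. Of these, 5931 had a ratio above 0 and 5455 below, the background for the counts of list members above or below 0 given later. Of the same genes 4.19% were 2-fold higher and 2.26% were 2-fold lower. The lists set beside the members were chosen with earlier results of these data known. Of the epithelial markers fixed for the cell type, EPCAM (0.39 and 0.04 FPKM in the DDX5 shRNA and non-targeting libraries), CDH1 (0.07 and 0.36 FPKM) and KRT18 (0.16 and 0.1 FPKM) were near 0, KRT8 stood at 1.31 and 5.24 FPKM, and KRT19 was not analysed here. Of the mesenchymal markers, VIM was abundant at 1270.59 and 1583.62 FPKM, ZEB1 stood at 17.13 and 14 FPKM, FN1 at 5.99 and 4.76 FPKM, and CDH2 was listed at 0 and 0.07 FPKM. The fibroblast markers COL1A1 (260.5 and 285.04 FPKM), COL1A2 (6.02 and 2.52 FPKM) and DCN (140.68 and 68.13 FPKM) were present in both libraries. CD14 (leukocyte, 0.05 and 0.27 FPKM) and VWF (endothelial, 0.05 and 0.01 FPKM) were near 0, and the other fixed markers of these cells (PTPRC, CD3E, PECAM1 and CDH5) were not analysed here. The part of these marker differences in the results below was not tested.

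No member was 2-fold apart between the libraries. In the DDX5 shRNA library 0 of the 10 genes were higher by 2-fold or more, as 4.19% of all genes were, and 0 were lower by 2-fold or more, as 2.26% of all genes were. Members stood on both sides of 0, with 6 above and 4 below, a median ratio of 0.22 and a range of -0.54 to 0.91. The median absolute ratio was 0.48 over the members and 0.32 over all genes. IMPACT and PPP1R15B had the highest ratios, and EIF2AK2, EIF2S1 and EIF2AK4 the lowest. OMA1, DELE1, EIF2AK3 and EIF2AK1 were also above 0, and GCN1 was also below. All 10 passed the filter of 1 FPKM in both libraries taken singly.

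**Figure D1:**
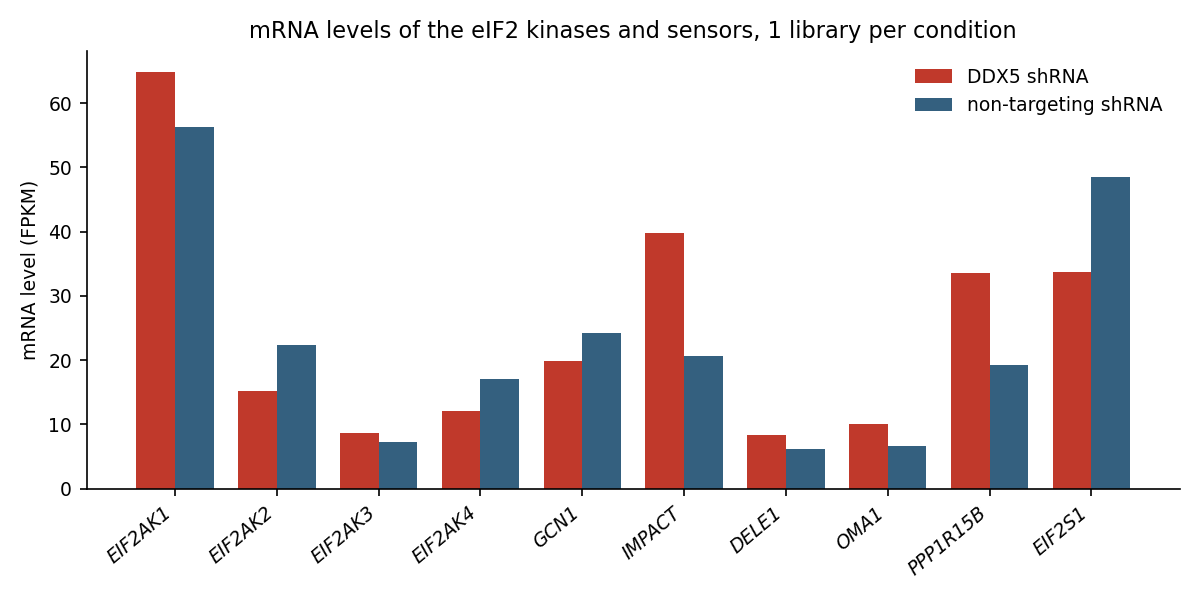
mRNA level in FPKM of each of the 10 genes, with the DDX5 shRNA library on the left of each pair and the non-targeting library on the right, 1 library per bar and no error bar. EIF2AK1 is the tallest pair, at 64.89 and 56.32 FPKM, and DELE1 the lowest, at 8.4 and 6.26 FPKM.

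Promoter sequences were available for 9 of the 10 members (RefSeq, GRCh38.p14, 250 bases before to 50 bases after the annotated start). Those of the 2 members with the highest ratios and of the member with the lowest are shown 5′ to 3′, with capitals marking every match, on either strand, to the C/EBP-ATF response element core TGATGNAA, the interferon response element core GAAANNGAA, the E-box CACGTG or the CCAAT box. They lie at chr18:24426420-24426719 (plus strand) for IMPACT, chr1:204411768-204412067 (minus strand) for PPP1R15B and chr2:37156931-37157230 (minus strand) for EIF2AK2.
IMPACT: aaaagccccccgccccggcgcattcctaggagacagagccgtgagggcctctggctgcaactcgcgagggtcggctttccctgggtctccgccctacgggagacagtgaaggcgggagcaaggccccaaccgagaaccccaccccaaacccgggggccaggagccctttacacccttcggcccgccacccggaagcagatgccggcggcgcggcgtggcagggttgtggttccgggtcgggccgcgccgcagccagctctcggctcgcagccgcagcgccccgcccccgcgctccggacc
PPP1R15B: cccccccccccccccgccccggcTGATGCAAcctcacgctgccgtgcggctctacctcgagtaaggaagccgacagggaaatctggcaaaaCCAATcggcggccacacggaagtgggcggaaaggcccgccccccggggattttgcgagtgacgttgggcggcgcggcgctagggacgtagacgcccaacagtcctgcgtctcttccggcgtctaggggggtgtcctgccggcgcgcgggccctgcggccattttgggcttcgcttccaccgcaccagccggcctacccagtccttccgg
EIF2AK2: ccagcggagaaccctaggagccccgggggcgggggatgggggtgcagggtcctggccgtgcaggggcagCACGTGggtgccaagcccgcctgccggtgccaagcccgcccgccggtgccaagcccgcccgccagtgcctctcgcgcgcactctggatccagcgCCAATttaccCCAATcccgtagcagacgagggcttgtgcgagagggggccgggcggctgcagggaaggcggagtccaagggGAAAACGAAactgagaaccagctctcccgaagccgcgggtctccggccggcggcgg
The PPP1R15B window held the only TGATGNAA match among the 9 members, 227 bases before the start, and this pattern occurs in 3.67% of 27305 promoters. The same pattern was found 68 bases before the start of ASNS, asparagine synthetase, and 209 bases before that of CHAC1, a glutathione-degrading enzyme, while the windows of PPP1R15A, DDIT3 and TRIB3 held none. The EIF2AK2 window held the only GAAANNGAA match, 6 bases before the start, a pattern found in 8.29% of promoters, and the only E-box, found in 7.43%. IMPACT held none of the 4 patterns, and CCAAT boxes were found in 4 of the 9 member promoters against 35.7% of all promoters. A match of letters describes the sequence and is no evidence that a factor binds there.

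Among the kinases, EIF2AK1 and EIF2AK3 stood slightly higher in the DDX5 shRNA library and EIF2AK2 and EIF2AK4 lower. EIF2AK1, the kinase with the highest mRNA level, stood at 64.89 FPKM in the DDX5 shRNA library and at 56.32 FPKM in the non-targeting library, a ratio of 0.20. This value carries a limit: 11.1% of the 50-base windows of its longest transcript also lie, on the opposite strand, in transcripts of AIMP2, a scaffold protein of the tRNA synthetase complex. AIMP2 stood at 419.66 FPKM in the DDX5 shRNA library against 171.54 FPKM in the non-targeting library. No source used here gives the strand setting of the counting. The part of AIMP2 reads in the EIF2AK1 value was not tested.

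EIF2AK3, which encodes PERK, stood at 8.66 FPKM in the DDX5 shRNA library, against 7.21 FPKM in the non-targeting library, a ratio of 0.23. EIF2AK2, which encodes PKR, stood at 15.14 FPKM in the DDX5 shRNA library, against 22.44 FPKM in the non-targeting library, a ratio of -0.54 and the lowest of the 10. In bulk RNA, a lower level in every cell and fewer cells with the transcript cannot be told apart. EIF2AK4, which encodes GCN2, stood at 12.17 FPKM in the DDX5 shRNA library, against 17.1 FPKM in the non-targeting library, a ratio of -0.46. Among all 11413 genes these ratios lay at percentile 67.2 for EIF2AK3, 11.8 for EIF2AK2 and 15.2 for EIF2AK4. Of the EIF2AK3 windows, 15.9% also lie in an antisense transcript, AC104134.1, which has no value here.

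Within each library the kinases kept the same order of FPKM, with EIF2AK1 first and EIF2AK2, EIF2AK4 and EIF2AK3 after it. Their summed level was nearly equal, at 100.86 FPKM in the DDX5 shRNA library and 103.07 FPKM in the non-targeting library. The share of EIF2AK1 in that sum was 64.3% in the DDX5 shRNA library and 54.6% in the non-targeting library. EIF2AK2 made up 15.0% in the DDX5 shRNA library and 21.8% in the non-targeting library, and EIF2AK4 made up 12.1% in the DDX5 shRNA library and 16.6% in the non-targeting library. EIF2AK3 was the smallest part in both, at 8.59% in the DDX5 shRNA library and 7.0% in the non-targeting library. These shares do not depend on how the libraries are scaled to each other. Both the shares and the sum carry the AIMP2 limit given above for EIF2AK1.

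**Figure D2:**
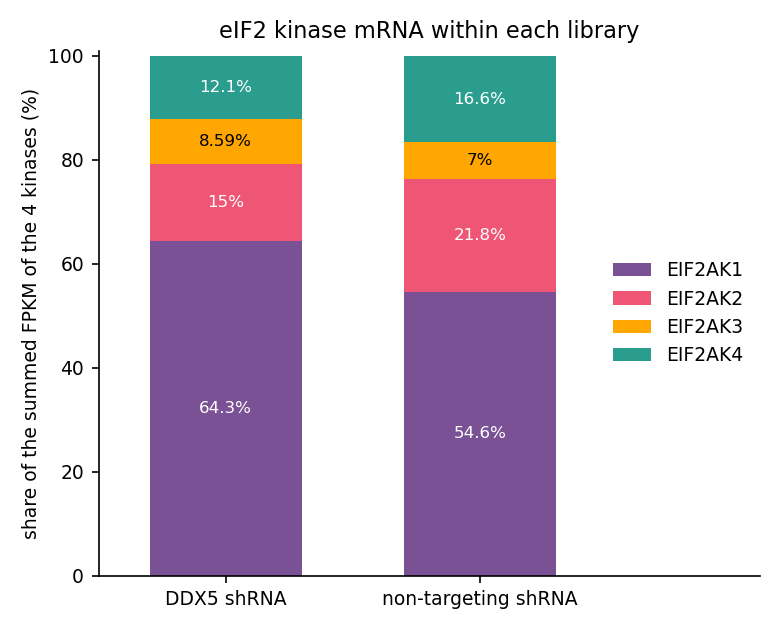
Share (%) of each eIF2 kinase gene in the summed FPKM of the 4 kinases, with the DDX5 shRNA library on the left and the non-targeting library on the right, 1 library each. EIF2AK1 makes up 64.3% in the DDX5 shRNA library and 54.6% in the non-targeting library, with the AIMP2 limit on its value.

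The GCN2 arm showed its restraining protein and its activator on opposite sides of 0. IMPACT, which competes with GCN2 for GCN1 and so limits GCN2 activation, stood at 39.71 FPKM in the DDX5 shRNA library, against 20.6 FPKM in the non-targeting library, 1.93-fold higher on FPKM. Its ratio of 0.91 was the highest of the 10 members and ranked 610 from the highest among 11413 genes. GCN1, the ribosome-bound scaffold that GCN2 needs to sense uncharged tRNA, stood at 19.92 FPKM in the DDX5 shRNA library and at 24.2 FPKM in the non-targeting library, a ratio of -0.27. The interquartile range of the genes near its level was -0.33 to 0.28. IMPACT mRNA was 1.99 times that of GCN1 in the DDX5 shRNA library and 0.851 times in the non-targeting library. Against EIF2AK4 it was 3.26 times in the DDX5 shRNA library and 1.2 times in the non-targeting library.

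None of the 10 fixed ribosome-side partners of GCN2 and collision sensors was 2-fold apart, and their median ratio was 0.17, with 7 above 0. At a common FPKM total the median was 0.062, with 6 above 0. EDF1, a factor that binds collided ribosomes, had the highest ratio at 0.75 (348.43 FPKM in the DDX5 shRNA library and 207.47 FPKM in the non-targeting library). ASCC3, a helicase that splits collided ribosomes, had the lowest at -0.35 (9.44 FPKM in the DDX5 shRNA library and 12.32 FPKM in the non-targeting library). The stalk proteins RPLP0, RPLP1 and RPLP2, which can activate GCN2, had ratios of 0.54, 0.40 and 0.30. Cytosolic ribosomal protein genes as a class, to which these belong, made up 33.4% of FPKM in the DDX5 shRNA library and 27.9% in the non-targeting library. Whether the stalk genes differ from that class was not tested.

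OMA1 and DELE1, which relay mitochondrial stress to HRI, both lay within 2-fold. OMA1, the inner-membrane protease that cleaves DELE1 under stress, stood at 10.01 FPKM in the DDX5 shRNA library, against 6.59 FPKM in the non-targeting library, a ratio of 0.54. DELE1, whose cleaved form binds and activates HRI in the cytosol, stood at 8.4 FPKM in the DDX5 shRNA library, against 6.26 FPKM in the non-targeting library, a ratio of 0.37. DELE1 was the least abundant member in both libraries, at 0.129 times the FPKM of EIF2AK1 in the DDX5 shRNA library and 0.111 times in the non-targeting library. Of the OMA1 windows, 8.74% occur in transcripts of other genes, mostly DAB1, which stood at 0.17 FPKM in both libraries. On the opposite strand, 1.94% of the windows match sequence in transcripts of NUPR1, a stress-induced chromatin protein. NUPR1 is not among the genes that overlap OMA1 in the genome. NUPR1 mRNA stood at 359.58 FPKM in the DDX5 shRNA library and 57.29 FPKM in the non-targeting library. The part of NUPR1 reads in the OMA1 value was not tested.

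The mitochondrial partners fixed beside them were mostly lower, with 9 of 12 below 0 and a median of -0.21 (-0.326 at a common FPKM total). LONP1, the matrix protease, was the single member 2-fold higher (4.19% of all genes were), at 146.65 FPKM in the DDX5 shRNA library and 65.81 FPKM in the non-targeting library. HSPD1, the matrix chaperonin, was the single member 2-fold lower (2.26% of all genes were), at 453.7 FPKM in the DDX5 shRNA library and 922.89 FPKM in the non-targeting library. After scaling each library to one common FPKM total 2 members were 2-fold lower. OPA1, the fusion GTPase that OMA1 also cleaves, stood at 13.93 FPKM in the DDX5 shRNA library and 21.17 FPKM in the non-targeting library. Of 11 chaperone and heme genes that bear on HRI, 2 were 2-fold lower, as 2.26% of all genes were. They were the heat shock proteins HSP90AA1 (223.95 FPKM in the DDX5 shRNA library and 1345 FPKM in the non-targeting library) and HSPA8 (643.49 FPKM in the DDX5 shRNA library and 1652.26 FPKM in the non-targeting library). After that scaling 3 of the 11 were 2-fold lower, with HSP90AB1 added. Before it HSP90AB1 stood at 929.95 FPKM in the DDX5 shRNA library and 1811.05 FPKM in the non-targeting library, a ratio of -0.96. Of the 11 genes, 8 were below 0, with a median of -0.35 (-0.46 after that scaling). Heme oxygenase HMOX1, which breaks heme down, had the highest ratio of that list at 0.84 and stood at 18.94 FPKM in the DDX5 shRNA library, against 10.13 FPKM in the non-targeting library.

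**Figure D3:**
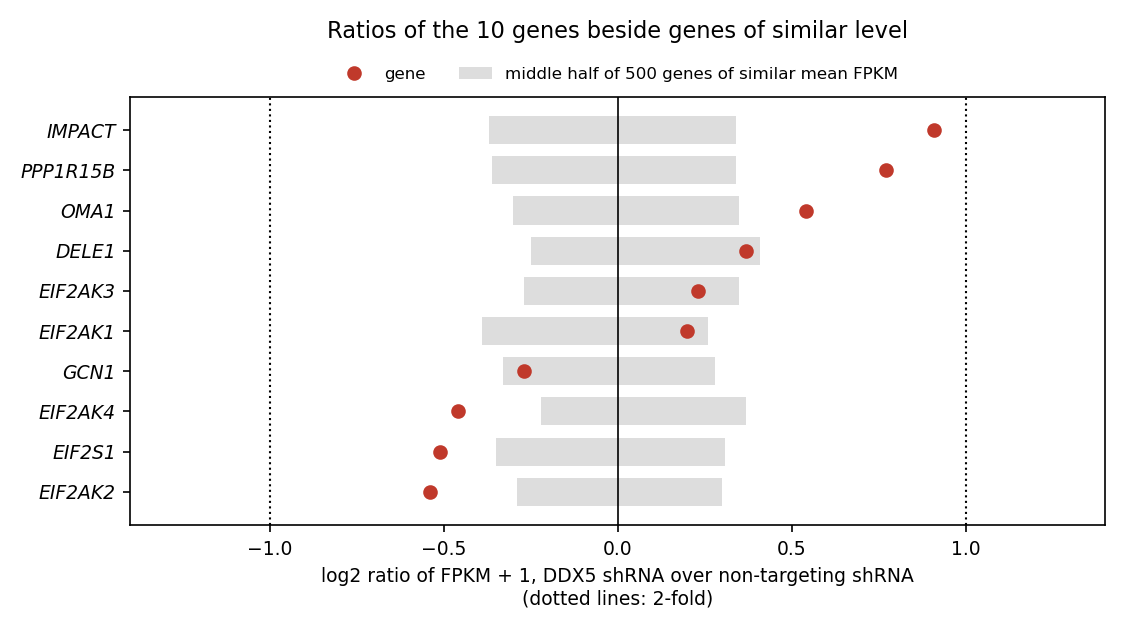
Log2 ratio of FPKM + 1 of each of the 10 genes (points, DDX5 shRNA over non-targeting shRNA), with grey bars for the interquartile range of the 500 genes nearest in mean FPKM and dotted lines at 2-fold. IMPACT, PPP1R15B and OMA1 lie above their bars, EIF2AK4, EIF2S1 and EIF2AK2 below, and all points lie between the dotted lines.

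PPP1R15B (CReP), which directs protein phosphatase 1 to eIF2 alpha in unstressed cells, stood at 33.61 FPKM in the DDX5 shRNA library, against 19.32 FPKM in the non-targeting library, 1.74-fold higher on FPKM and a ratio of 0.77. It ranked 923 from the highest of 11413 genes. Its stress-inducible relative PPP1R15A (GADD34), itself a target of the ATF4 pathway, stood at 41.46 FPKM in the DDX5 shRNA library, against 9.36 FPKM in the non-targeting library, a ratio of 2.04. PPP1R15A mRNA was thus 1.23 times that of PPP1R15B in the DDX5 shRNA library and 0.484 times in the non-targeting library. Together they summed to 75.07 FPKM in the DDX5 shRNA library and 28.68 FPKM in the non-targeting library. Among the catalytic subunits of protein phosphatase 1, PPP1CC was 2-fold lower, at 51.52 FPKM in the DDX5 shRNA library and 104.93 FPKM in the non-targeting library, a ratio of -1.01 that fell short of 2-fold with a pseudocount of 5. PPP1CA and PPP1CB lay within 2-fold, with ratios of -0.13 and 0.36.

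EIF2S1, the alpha subunit of eIF2 and the substrate of all 4 kinases, stood at 33.77 FPKM in the DDX5 shRNA library, against 48.49 FPKM in the non-targeting library, a ratio of -0.51. Of its windows, 4.95% lie on the opposite strand of ATP6V1D transcripts, which had 16.98 FPKM in the DDX5 shRNA library and 27.56 FPKM in the non-targeting library. The part of that overlap was not tested. The beta subunit EIF2S2 and the gamma subunit EIF2S3 had ratios of -0.19 and -0.12. EIF2S2 mRNA was 3.02 times that of EIF2S1 in the DDX5 shRNA library and 2.39 times in the non-targeting library. PPP1R15B mRNA came to 0.995 times that of its substrate gene EIF2S1 in the DDX5 shRNA library and to 0.398 times in the non-targeting library. Over the 9 eIF2 partners and eIF2B subunits, eIF2B being the exchange factor that phosphorylated eIF2 blocks, none was 2-fold apart, 8 were below 0 and the median was -0.12, which was -0.236 at a common FPKM total. EIF2B5, the catalytic subunit, had the lowest ratio at -0.53 (15.67 FPKM in the DDX5 shRNA library and 23.09 FPKM in the non-targeting library), and EIF2B2 the highest at 0.33.

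All 11 PERK regulators and other endoplasmic reticulum stress sensors had ratios above 0. Their median of 0.33 lay inside the all-gene interquartile range of -0.28 to 0.35. Those past the filter stayed above 0 under all 8 alternative settings, of which only the scalings could move a ratio across 0. XBP1, the transcription factor of the IRE1 branch, was the single member of the 11 at least 2-fold higher (4.19% of all genes were), at 204.26 FPKM in the DDX5 shRNA library and 71.41 FPKM in the non-targeting library. With a pseudocount of 0.1 there were 2, XBP1 and ERN1. ERN1, which encodes IRE1, stood at 3.03 FPKM in the DDX5 shRNA library and 1.15 FPKM in the non-targeting library, a ratio of 0.91 with the pseudocount of 1. HSPA5 (BiP), which holds PERK inactive, stood at 334.43 FPKM in the DDX5 shRNA library and 273.25 FPKM in the non-targeting library, and NCK2, an adaptor, had the lowest ratio at 0.15. Of 7 PKR regulators and double-stranded RNA binding proteins, 6 were below 0 and the median was -0.28. The helicase DHX9 was the single member 2-fold lower (2.26% of all genes were), at 60.4 FPKM in the DDX5 shRNA library and 141.06 FPKM in the non-targeting library. PRKRA (PACT), a protein activator of PKR, was the member above 0, at 46.91 FPKM in the DDX5 shRNA library and 33.6 FPKM in the non-targeting library.

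PKR is itself interferon-inducible, and the interferon-stimulated genes fixed beside it were weakly expressed in both libraries. Of 15 such genes, 14 were in the table and 6 reached a mean of 1 FPKM, none of them 2-fold apart. With a pseudocount of 0.1, 1 of the 6 was 2-fold higher and 1 was 2-fold lower. Those 6 had a median of -0.36, which was -0.062 over all 14 with no filter. IRF9, part of the interferon-activated transcription complex, had the highest ratio at 0.92 (9.06 FPKM in the DDX5 shRNA library and 4.33 FPKM in the non-targeting library), and IFIT3 the lowest at -0.64 (0.64 FPKM in the DDX5 shRNA library and 1.56 FPKM in the non-targeting library).

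**Figure D4:**
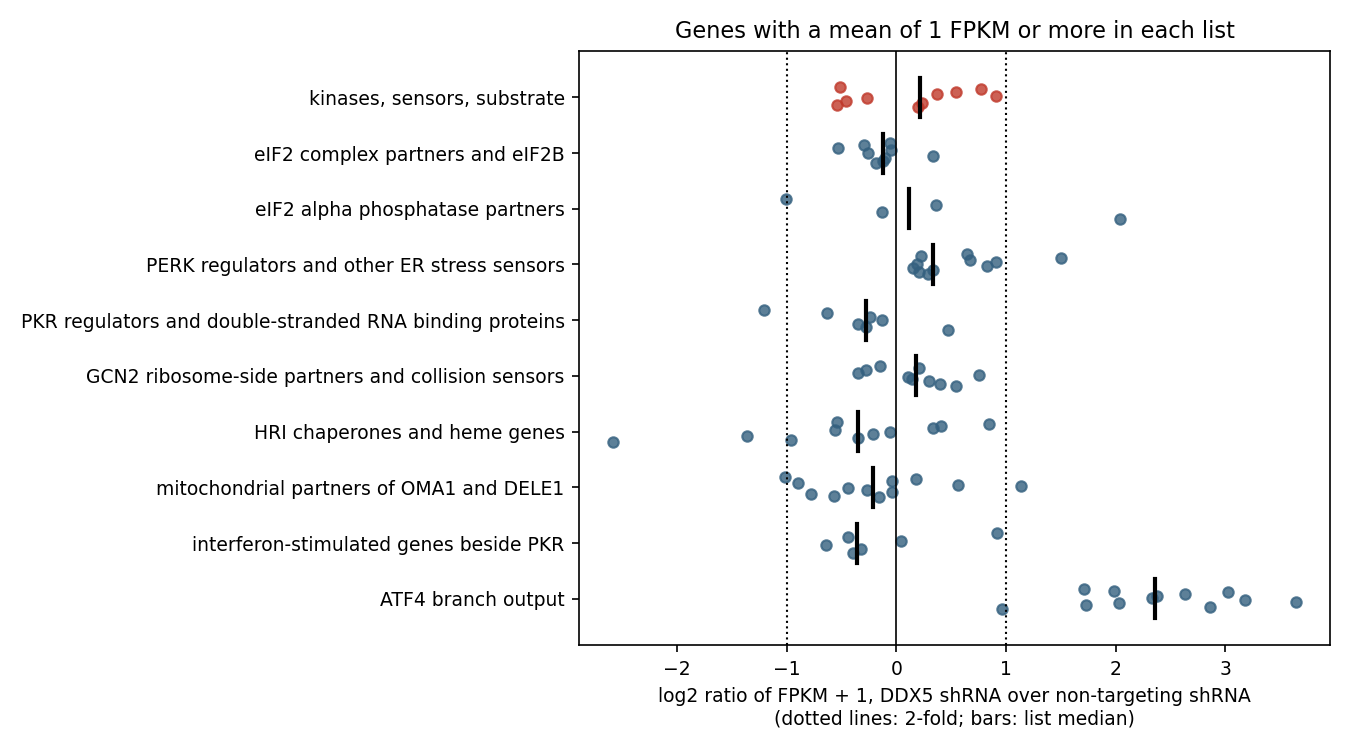
Log2 ratio of FPKM + 1 (DDX5 shRNA over non-targeting shRNA) of each gene whose mean reached 1 FPKM, for the 10 kinases, sensors and substrate (red) and for the 9 lists around them (blue), with black bars at list medians and dotted lines at 2-fold. The red points span -0.54 to 0.91, while the ATF4 branch output spans 0.96 to 3.64.

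Of the 12 genes listed as ATF4 branch output, downstream in the pathway, 11 were higher by 2-fold or more, as 4.19% of all genes were. Their median ratio was 2.36 and none was below 0. This list was chosen with earlier results of these data known, so its high count is no independent support. ATF4 itself was the member within 2-fold, at 601.83 FPKM in the DDX5 shRNA library and 309.42 FPKM in the non-targeting library, a ratio of 0.96. TRIB3, a pseudokinase that restrains ATF4 and CHOP, had the highest ratio at 3.64. DDIT3 (CHOP), CHAC1, ASNS, SESN2, NUPR1, DDIT4, CEBPB, VLDLR, ATF3 and PSAT1 were the others. These values come from the same pair of libraries as those of the kinases and sensors, and the difference between both lists was not tested.

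**Figure D5:**
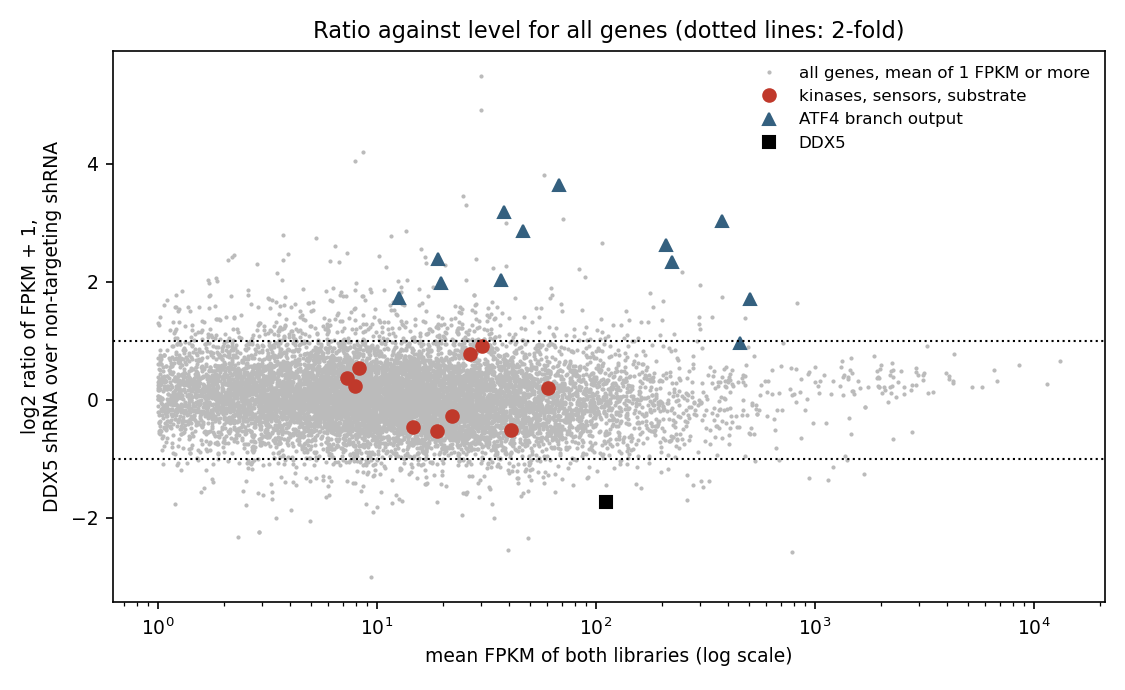
Log2 ratio of FPKM + 1 (DDX5 shRNA over non-targeting shRNA) against the mean FPKM of both libraries on a log axis, for the 11413 background genes (grey), the 10 kinases, sensors and substrate (red circles), the ATF4 branch output (blue triangles) and DDX5 (black square). The circles lie within the dotted 2-fold lines, and 11 of the 12 triangles lie above them.

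The number of fragments behind the values is an estimate. From the size of 1 fragment's step in the FPKM of short genes, depth came to about 1.52e+07 fragments in the DDX5 shRNA library and 1.54e+07 in the non-targeting library. OMA1, with the fewest fragments among the members, came to about 319 in the DDX5 shRNA library and 214 in the non-targeting library at the length of its longest transcript. For OMA1 the exact 95% binomial interval of the log2 ratio of FPKM, without pseudocount, was 0.35 to 0.86 at that length and 0.20 to 1.02 at the median length of its protein-coding transcripts. At the deposited scaling the corresponding interval left out 0 for all 10 members at both lengths. The share of all genes whose interval leaves out 0 was not computed, so this count does not set the members apart. A common FPKM total shifted the median ratio of all genes by -0.10. The lower bounds of EIF2AK3 (0.09 at the longest and 0.08 at the median length) and of EIF2AK1 at the median length (0.05) were smaller than that shift. These intervals cover counting error only and say nothing of the spread between cultures.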

How the data were processed

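RNA was sequenced from HGC-27 cells with a DDX5 shRNA or a non-targeting shRNA, 1 library each. The authors deposited FPKM per gene in 1 table, per the file headers. Per the submitters' processing notes the tools were RSEM 1.2.8, Bowtie2 and HISAT and the build was hg19, with no role or order stated. No source used here gives the annotation, strand setting or filters. Columns were assigned by sample title.

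Names came from RefSeq (GRCh38.p14), which matched 15289 of 16021 rows. Ratios used a pseudocount of 1, which understates the difference of low genes, and lists used genes whose mean reached 1 FPKM. No test was run. Members and lists were chosen with earlier results of these data known. All members are named, and in each list those 2-fold apart and the highest and lowest ratio. Further genes were chosen after their values were seen (OPA1, HSPA5, ERN1, HSP90AB1, the RPLP genes, PPP1CA, PPP1CB, EIF2S2, EIF2S3, AIMP2 and other genes with shared sequence). With 2 libraries no likeness of pattern between genes was computed.

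To measure shared sequence, 50-base windows were taken every 10 bases from a gene's longest GENCODE v29 protein-coding transcript and looked up in the transcripts of other genes, on both strands. Depth was estimated from FPKM steps of genes with 1 transcript, shortened by 150 bases. At the best step 58.7% of 75 genes in the DDX5 shRNA library and 66.7% of 81 in the non-targeting library lay within 0.15 of a whole number. Chance gives 30% for a preset step, and more where the best step is sought. The tools were scipy 1.17.1, numpy 2.4.6, matplotlib 3.10.9 and pandas 2.3.3 under Python 3.11.15. The ratio step was tested on simulated data. The 8 alternatives changed the pseudocount (0.1 or 5), the filter (none, or 5 FPKM) or the scaling. The scalings were a common FPKM total, the same without ribosomal protein genes, and ratios centred on their median or on their mean after 30% was trimmed from either end.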

Additional observations from a re-analysis of the deposited data

How the results depend on the processing

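Under all 8 alternatives 0 members passed 2-fold upward and 0 downward, and 6 had a ratio above 0. Of these alternatives only the scalings could move a ratio across 0. The members' median ranged from 0.11 at the same total FPKM to 0.23 with a pseudocount of 0.1, IMPACT from 0.80 to 0.94, PPP1R15B from 0.66 to 0.80 and EIF2AK2 from -0.65 to -0.45. Over all genes, 743 passed 2-fold upward and 390 downward with a pseudocount of 0.1, and 194 and 102 with a pseudocount of 5, against 478 and 258 with a pseudocount of 1. The same total FPKM shifted the median of all genes by -0.10. Cytosolic ribosomal protein genes made up 33.4% of FPKM in the DDX5 shRNA library and 27.9% in the non-targeting library. No paired analysis was possible because each condition has 1 library, and no library could be left out. Depth is an estimate, and FPKM of overlapping genes depends on a strand setting that is not given.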
